A study of Mus musculus with 16 samples.

Results

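A set of 10 imprinted genes that are tied to growth, Plagl1, Igf2, Igf2r, Peg3, Peg10, Mest, Sgce, Dlk1, Phlda2 and Impact, was followed in mouse embryonic stem cells (ESCs). They were taken by name from the 35968 genes to which transcripts were summed, and all 10 were among the 18944 genes with enough counts to be tested. ESCs are pluripotent cells of the blastocyst. The cells were wild type (WT) or knockout (KO) for Dgcr8, which binds primary microRNA transcripts so that the nuclease Drosha can cut them, and each genotype was grown in normal ESC culture (not paused) or in mTORi culture (paused). mTORi denotes inhibition of mTOR, a kinase that couples growth to nutrients, and holds ESCs in a slowed state used as a model of embryonic diapause. The groups were WT not paused, WT paused, KO not paused and KO paused, with 4 libraries in each and 16 in all. The labels state 800000 cells per sample, poly(A) RNA and day 2 for the mTORi culture. They name no inhibitor and dose, no strain, no sex and no clone for either line, and do not state whether separate cultures stand behind the replicates. P-values therefore measure the spread between these libraries, which may be technical.

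Imprinted genes are transcribed from only the maternal or the paternal chromosome, as set by DNA methylation placed in the egg or the sperm and kept through early development. In the mouse, Igf2r and Phlda2 are expressed from the maternal copy and the other 8 genes from the paternal copy. Paternally expressed genes as a class tend to promote growth of the fetus and placenta, and maternally expressed genes tend to restrain it. These libraries carry no information on alleles, so each value below is the sum over both copies. In bulk RNA, fewer cells that express a gene and less RNA per cell cannot be told apart.

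Promoter sequences are shown for Mest, whose promoter is itself a differentially methylated imprint control region, and for Phlda2, whose imprint is set from a control region elsewhere in its domain. Mest was the gene that ended highest in paused KO cells and Phlda2 the gene with the largest response to pausing. The 250 bases before the RefSeq transcript start (GRCm38.p6, 5′ to 3′ on the gene's strand) lie at chr6:30737800-30738049 on the plus strand for Mest and at chr7:143502525-143502774 on the minus strand for Phlda2. Capitals mark TGCCGC on either strand, the core hexamer of ZFP57, a zinc-finger protein that keeps methylation at imprint control regions. It was the only motif searched.
Mest: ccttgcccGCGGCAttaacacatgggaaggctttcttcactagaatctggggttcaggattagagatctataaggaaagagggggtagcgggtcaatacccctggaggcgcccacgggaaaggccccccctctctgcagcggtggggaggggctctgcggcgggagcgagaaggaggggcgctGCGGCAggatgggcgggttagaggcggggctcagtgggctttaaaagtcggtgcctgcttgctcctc
Phlda2: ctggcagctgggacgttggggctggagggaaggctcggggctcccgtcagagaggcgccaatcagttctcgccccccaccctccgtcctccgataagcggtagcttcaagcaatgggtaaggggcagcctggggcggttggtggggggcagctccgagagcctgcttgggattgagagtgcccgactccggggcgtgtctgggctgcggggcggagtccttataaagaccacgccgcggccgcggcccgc
The Mest promoter held the hexamer at positions 9 and 184 of the window, both as GCGGCA, and the Phlda2 promoter held none. Of 32851 promoter windows of this length, 8.7% held at least 1 copy. Promoters were found in RefSeq for 7 of the 10 genes, 12 windows in all. Among the other 5 genes, Plagl1 had the hexamer once, at position 161 of chr10:13090582-13090831, and Igf2, Igf2r, Peg3 and Dlk1 had none in these windows. CpG pairs numbered 14 in the Mest window shown, 21 in the Phlda2 and 19 in the Plagl1 window, against a median of 6 over all windows. Mest has a second start 3 bases on, with nearly the same window, and an upstream one with the window chr6:30733256-30733505, which held no hexamer and 7 CpG pairs. The 4 windows of Igf2 held 1, 10, 22 and 6 CpG pairs, that of Igf2r 27, and those of Peg3 and Dlk1 8 each. A match or its absence describes these letters only.

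Introns of Mest and Igf2 also carry microRNA genes, and since Dgcr8 is needed to cut such hairpins out of their host transcripts, their mature sequences are shown with the seed (bases 2 to 8) in capitals. All 4 seeds differ. miR-335 lies on chromosome 6 between 30741314 and 30741375, inside Mest, and miR-483 on chromosome 7 between 142654932 and 142654989, inside Igf2 (GRCm38.p6). Mature microRNAs were not measured in these poly(A) libraries, so the values below are of the host genes.
miR-335-5p: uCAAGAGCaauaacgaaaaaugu
miR-335-3p: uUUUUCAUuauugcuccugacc
miR-483-5p: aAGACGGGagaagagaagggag
miR-483-3p: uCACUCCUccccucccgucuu

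Libraries held 88377380 to 116646028 estimated counts. Dgcr8 itself was higher in KO than in WT libraries, at 250.3 ± 4.16 against 47.3 ± 1.81 CPM (counts per library scaled for depth; mean ± SD of 4 libraries) without pausing and 181 ± 7.32 against 53.9 ± 2.43 when paused. As the deleted part of Dgcr8 is not named in the labels, this level checks nothing about the genotype. Summed TPM (a unit corrected for transcript length) of 4 Y-linked genes was 86.8 to 137 in the WT and 0.966 to 2.49 in the KO libraries, so the lines differed in more than Dgcr8. For every KO against WT value below, loss of Dgcr8 and other differences between the lines cannot be told apart. The 10 ESC markers summed to 7118 to 9789 TPM over the 16 libraries and none was under 1 TPM in any group. The 7 primitive endoderm markers summed to 13.8 to 23.8 TPM in WT and 6.38 to 11.6 TPM in KO libraries, and the 7 trophoblast markers to 6.38 to 10.9 and 4.51 to 7.33 TPM. Of the 7 primitive endoderm markers, 1 was higher and 6 lower in KO cells without pausing (median log2 fold change -1.93). When paused, all 7 were lower (median -1.74). Among all genes, 34.1% were higher and 34.1% lower without pausing, and 30.8% and 34.5% when paused. The 10 fibroblast markers summed to 10.97 to 14.5 TPM in WT and 22.7 to 33.9 TPM in KO libraries, most of it Thy1. Of the 6 fibroblast markers that could be tested, 2 were higher and 4 lower in KO cells without pausing (median log2 fold change -0.45), and 1 was higher and 3 lower when paused (median -0.32), while the TPM summed over all 10 was higher in KO libraries. The 5 mesoderm markers summed to 1.53 to 7.22 TPM in WT and 1.499 to 2.76 TPM in KO libraries, and the 5 neuroectoderm markers to 11.6 to 14.4 and 5.14 to 8.51 TPM. No marker was at 0 in all libraries of a group. The part of these markers in the results was not tested.

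**Figure D1:**
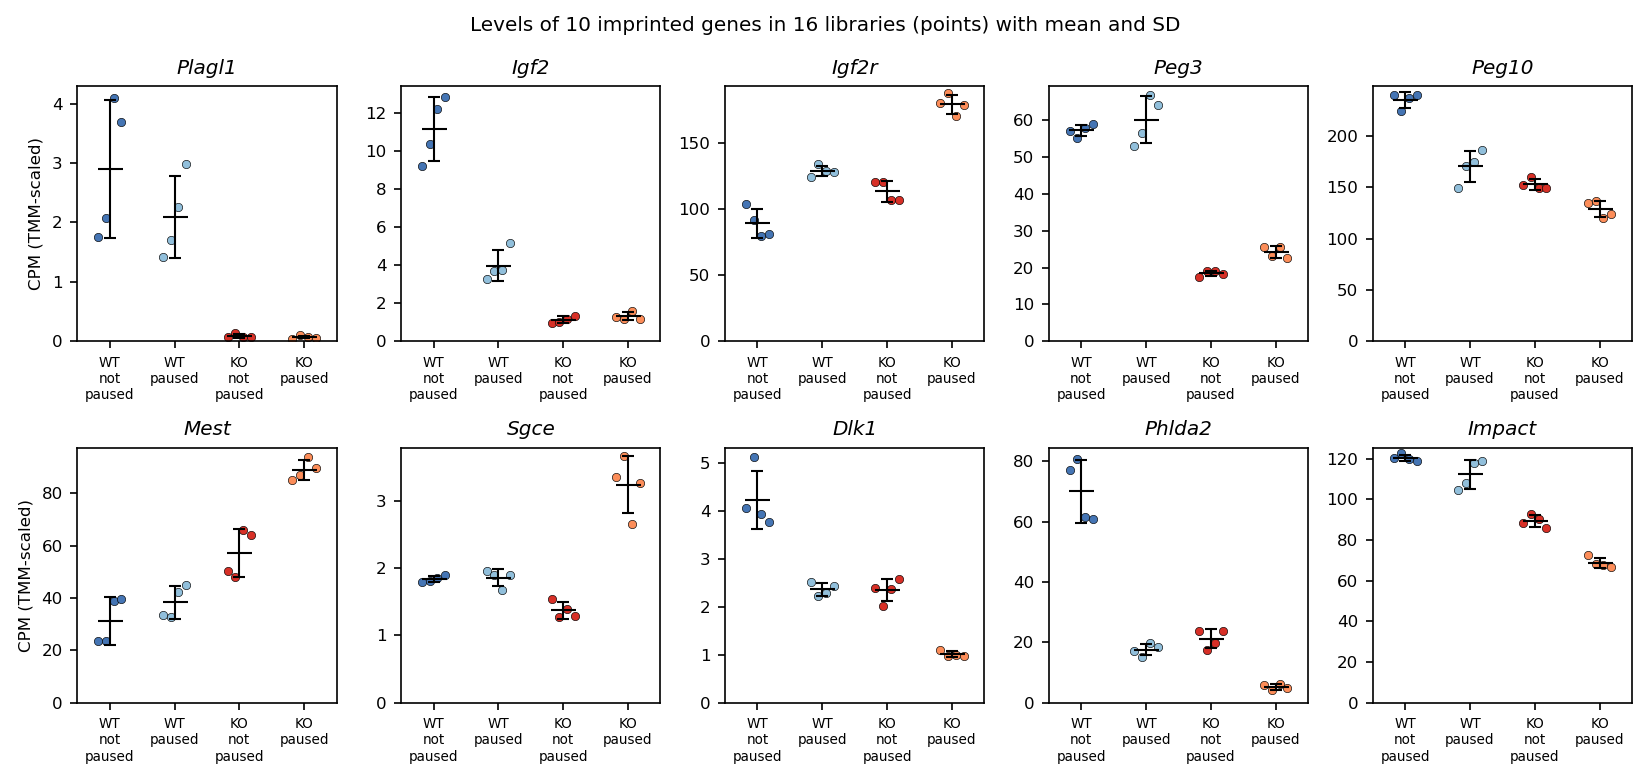
TMM-scaled CPM (vertical axes, each from 0) of the 10 imprinted genes in the 4 groups (horizontal axes). Points are single libraries, and the bars give the mean and the SD of 4. Plagl1 and Igf2 lie near 0 in both KO groups, Phlda2 steps down with pausing in both genotypes, and Mest is highest in the paused KO libraries, at 85.1 to 93.9 CPM.

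Igf2 (ENSMUSG00000048583.16, chromosome 7, 142650766 to 142666816, minus strand) encodes insulin-like growth factor 2, the main IGF ligand of fetal growth. Its levels were 9.21, 10.4, 12.2 and 12.8 CPM in the 4 WT libraries without pausing and 3.29, 3.68, 3.76 and 5.18 CPM in the paused WT libraries. In KO cells they were 0.943, 1.00, 1.18 and 1.35 CPM without pausing and 1.29, 1.15, 1.60 and 1.16 CPM when paused. The WT groups did not overlap, while the KO groups did, and every KO library lay below every WT library of the same culture. Pausing lowered Igf2 in WT cells 2.81-fold (log2 fold change -1.49 ± 0.15, SE; adjusted p = 5.57e-08). In KO cells the log2 fold change was 0.22 ± 0.17 (adjusted p = 0.271). The 2 responses differed by 1.71 ± 0.22 on the log2 scale (adjusted p = 9.77e-06). Against WT, Igf2 was 9.97-fold lower in KO cells without pausing (-3.32 ± 0.16, adjusted p = 3.33e-12) and 3.06-fold lower when paused (-1.61 ± 0.16, adjusted p = 5.48e-08). Only 3.51% of the genes tested had a larger response to pausing in WT cells. A protein-coding gene model on the same strand, Gm49394, overlaps Igf2 and held 0 to 176 counts per library, so the division of reads between them is uncertain. The antisense gene Igf2os was not analysed here, and whether the libraries keep strand is not given in the sources used here.

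Igf2 reads were divided by the estimate over several transcripts. In WT libraries without pausing, Igf2-205 held 31.2%, Igf2-201 25.8% and Igf2-208 19.1% of the summed TPM of the gene on average. After pausing these shares were 20.7%, 19.4% and 31.4%. For each of them the libraries of the WT groups overlapped. Igf2-205 held 29.58% to 32.58% without pausing and 9.51% to 29.94% when paused. Igf2-201 held 13.9% to 40.6% and 7.48% to 34.2%, and Igf2-208 14.6% to 27.8% and 18.4% to 40.9%. Igf2-205 starts at 142659489 and Igf2-201 at 142657496, so they begin at different places, whereas Igf2-208 is a non-coding transcript within the 3′ part of the gene. At the levels of the KO cells (86 to 169 counts per library for the gene) such shares are estimated from few reads.

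Igf2r (ENSMUSG00000023830.14, chromosome 17, 12682406 to 12769664, minus strand) encodes the receptor that takes IGF2 to lysosomes for breakdown and so limits the ligand. Of the 10 genes it was the only one to pass the threshold upward both for pausing in each genotype and for KO against WT in each culture. Levels were 103.9, 92.0, 79.8 and 81.6 CPM in WT libraries without pausing and 125, 134, 129 and 128 CPM when paused. KO libraries held 120.4, 120.4, 107 and 107 CPM without pausing and 180.3, 188, 170.5 and 179 CPM when paused, so that no groups compared overlapped. Pausing raised it 1.45-fold in WT cells (0.53 ± 0.07, adjusted p = 2.26e-06) and 1.58-fold in KO cells (0.66 ± 0.07, adjusted p = 1.26e-07). The responses did not differ past the threshold (0.13 ± 0.10, 95% interval -0.08 to 0.34, adjusted p = 0.302). KO cells exceeded WT cells 1.27-fold without pausing (adjusted p = 0.000202) and 1.39-fold when paused (adjusted p = 7.52e-06). Nearly all of its TPM, 98.9% to 99.4% as group means, came from the full-length Igf2r-201. The antisense gene Airn, which silences the paternal Igf2r, was not analysed here.

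The other genes of the IGF axis, 23 of 26 listed that could be tested without counting the 10 genes, showed 11 higher and 7 lower in paused WT cells and 9 higher and 10 lower in paused KO cells. Of all genes tested, 33.3% were higher and 27.5% lower with pausing in WT cells and 34.4% and 32.8% in KO cells. The list's medians on the log2 scale were 0.08 and 0.00, against 0.04 and 0.02 over all genes tested. Both signalling receptors rose. Igf1r, which carries the growth signal of IGF2, went from 18.3 ± 1.10 to 46.4 ± 5.12 CPM in WT cells (log2 fold change 1.34 ± 0.07, adjusted p = 6.97e-12) and from 44.3 ± 1.10 to 91.9 ± 5.47 CPM in KO cells (1.05 ± 0.06, adjusted p = 8.22e-11). The insulin receptor Insr went from 3.99 ± 0.613 to 9.18 ± 0.528 CPM in WT and from 11.3 ± 0.924 to 20.3 ± 0.978 CPM in KO cells. Irs2, an adaptor below these receptors, rose by 1.44 ± 0.06 in WT and 2.42 ± 0.06 in KO cells, and its response was larger in KO cells by 0.99 ± 0.09 (adjusted p = 1.38e-07). Grb10, a maternally expressed adaptor that restrains the receptors, fell by 1.58 ± 0.23 in WT and 0.66 ± 0.22 in KO cells, and was higher in KO than in WT cells by 1.67 ± 0.23 without pausing and 2.59 ± 0.24 when paused. Igf1, the other IGF ligand, had 3 to 19 counts per library. The RNA-binding protein gene Igf2bp3, whose product binds Igf2 mRNA, was higher in KO cells by 1.91 ± 0.07 without pausing (adjusted p = 2.82e-13).

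Phlda2 (ENSMUSG00000010760.5, chromosome 7, 143501545 to 143503150, minus strand) encodes a small pleckstrin-homology protein that restrains growth of the placenta, and lies 0.83 Mb from Igf2. It had the largest response to pausing of the 10 genes in both genotypes. Its levels were 77.1, 80.8, 61.5 and 60.8 CPM in WT libraries without pausing and 17.2, 15.3, 19.7 and 18.4 CPM when paused. KO libraries held 23.7, 17.6, 19.8 and 23.9 CPM without pausing and 5.75, 4.05, 6.05 and 4.84 CPM when paused. No groups of the 4 comparisons overlapped, while the KO libraries without pausing overlapped the paused WT libraries. Phlda2 fell 3.98-fold with pausing in WT cells (-1.99 ± 0.14, adjusted p = 3.03e-09) and 4.12-fold in KO cells (-2.04 ± 0.14, adjusted p = 3.68e-09). These responses differed by -0.05 ± 0.19 (95% interval -0.47 to 0.37, adjusted p = 0.858), with a sign that turned to 0.06 without replicate 2 of KO paused, and also turned without replicate 1 (0.002) or 4 (0.009) of KO not paused, 3 (0.05) or 4 (0.009) of WT not paused or 3 (0.005) of WT paused. Only 1.27% of the genes tested had a larger response in WT and 2.92% in KO cells. KO cells had 3.30-fold less Phlda2 than WT cells without pausing (-1.72 ± 0.13, adjusted p = 1.16e-08) and 3.42-fold less when paused (-1.77 ± 0.14, adjusted p = 2.33e-08).

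Dlk1 (ENSMUSG00000040856.17, chromosome 12, 109452823 to 109463336, plus strand) encodes a transmembrane protein related to Notch ligands that holds back differentiation, for example of fat cells. Its levels were low, 4.07, 5.12, 3.95 and 3.76 CPM in WT libraries without pausing and 2.52, 2.23, 2.30 and 2.43 CPM when paused. In KO libraries they were 2.40, 2.02, 2.38 and 2.58 CPM without pausing and 1.10, 0.977, 0.996 and 0.974 CPM when paused. It was lower in paused cells of both genotypes and in KO cells of both cultures, with no overlap of groups. Pausing lowered it 1.79-fold in WT cells (-0.84 ± 0.11, adjusted p = 1.62e-06) and 2.32-fold in KO cells (-1.21 ± 0.11, adjusted p = 2.68e-08), and KO cells had 1.80-fold less without pausing and 2.34-fold less when paused (adjusted p = 1.1e-06 and 2.63e-08). The difference of the responses, -0.38 ± 0.16, missed the threshold (adjusted p = 0.0602). It passed without replicate 2 of WT not paused (-0.44, adjusted p = 0.02) or replicate 2 of KO not paused (-0.43, adjusted p = 0.0363).

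Plagl1 (ENSMUSG00000019817.18, chromosome 10, 13060504 to 13131694, plus strand) encodes a zinc-finger transcription factor, known as a regulator of a network of imprinted genes. It showed the largest difference between genotypes of the 10. WT libraries held 168, 212, 391 and 312 counts (1.76, 2.08, 4.10 and 3.69 CPM) without pausing and 143, 176, 230 and 285 counts (1.43, 1.70, 2.26 and 2.98 CPM) when paused. KO libraries held 6, 14, 7 and 6 counts without pausing and 4, 12, 8 and 6 counts when paused. Every KO library was thus far below every WT library, while the paused and not paused libraries overlapped in each genotype. Plagl1 was lower in KO cells by 5.08 ± 0.38 on the log2 scale without pausing (33.8-fold, adjusted p = 2.51e-09) and by 4.86 ± 0.39 when paused (29.0-fold, adjusted p = 7.73e-09), and 1.15% and 1.43% of the genes tested had larger differences. Without pausing the value was -4.21 in replicates 1 and 2 alone and -5.84 in replicates 3 and 4 alone. When paused it was -3.85 with length-scaled TPM counts. Pausing gave -0.47 ± 0.26 in WT cells (95% interval -1.04 to 0.09, adjusted p = 0.127). This passed the threshold without replicate 1 of WT not paused (-0.65, adjusted p = 0.0283) or replicate 4 of WT paused (-0.69, adjusted p = 0.033). In KO cells the value of -0.25 ± 0.59 (95% interval -1.54 to 1.04, adjusted p = 0.729) rests on counts too few to show a change, and its sign turned without replicate 2 of KO not paused (0.09).

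Peg3 (ENSMUSG00000002265.16, chromosome 7, 6703892 to 6730431, minus strand) encodes a large zinc-finger protein with roles in fetal growth and maternal behaviour. It separated the genotypes clearly and responded to pausing in KO cells. WT libraries held 57.0, 55.2, 57.8 and 59.0 CPM without pausing and 53.2, 56.5, 66.9 and 64.3 CPM when paused, and these groups overlapped. KO libraries held 17.5, 19.0, 19.1 and 18.2 CPM without pausing and 25.7, 23.2, 25.5 and 22.5 CPM when paused, which did not overlap. In KO cells Peg3 was 3.10-fold lower without pausing (-1.63 ± 0.07, adjusted p = 2.34e-13) and 2.49-fold lower when paused (-1.31 ± 0.06, adjusted p = 4.38e-12). Pausing raised it 1.31-fold in KO cells (0.39 ± 0.07, adjusted p = 3.28e-05) and gave 0.07 ± 0.06 in WT cells (95% interval -0.06 to 0.21, adjusted p = 0.337). The responses differed by 0.32 ± 0.09 (adjusted p = 0.00851).

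Peg10 and Sgce are neighbours on chromosome 6 that start 98 bases apart and run in opposite directions from 1 control region, and their responses were not alike. Peg10 (ENSMUSG00000092035.8, 4747306 to 4760517, plus strand) derives from a retrotransposon and is needed for the placenta. Its levels were 240.1, 224, 237 and 239.7 CPM in WT libraries without pausing and 149.5, 171, 174 and 186 CPM when paused, with 153, 160.1, 149 and 149 CPM and 134.5, 137, 120.4 and 124 CPM in the corresponding KO libraries. Peg10 fell with pausing in WT cells (-0.47 ± 0.06, adjusted p = 6.7e-07) and, by less, in KO cells (-0.25 ± 0.06, adjusted p = 0.000709), and was lower in KO cells in both cultures (-0.62 ± 0.06 and -0.40 ± 0.06, adjusted p = 1.16e-08 and 4e-06). No groups compared overlapped in CPM. The difference of the responses, 0.22 ± 0.08, was close to the threshold (adjusted p = 0.031). It missed the threshold without replicate 1 (0.22, adjusted p = 0.0506) or 4 (0.21, adjusted p = 0.0603) of KO not paused, replicate 1 (0.21, adjusted p = 0.0525) or 2 (0.20, adjusted p = 0.0587) of KO paused, or replicate 1 of WT not paused (0.21, adjusted p = 0.051).

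Sgce (ENSMUSG00000004631.15, 4674350 to 4747207, minus strand) encodes epsilon-sarcoglycan, a membrane protein of the dystrophin-linked complex. WT libraries held 1.79, 1.80, 1.85 and 1.89 CPM without pausing and 1.96, 1.90, 1.67 and 1.91 CPM when paused, with overlap. KO libraries held 1.55, 1.27, 1.40 and 1.29 CPM without pausing, all below the WT libraries, and 3.36, 3.67, 2.66 and 3.27 CPM when paused, all above the WT libraries. Pausing raised Sgce 2.36-fold in KO cells (1.24 ± 0.11, adjusted p = 9.99e-09) and gave 0.02 ± 0.11 in WT cells (95% interval -0.22 to 0.26, adjusted p = 0.895). The responses differed by 1.22 ± 0.15 (adjusted p = 6.46e-06). KO against WT thus changed sign with the culture, from -0.42 ± 0.11 without pausing (adjusted p = 0.00287) to 0.80 ± 0.11 when paused (adjusted p = 2.49e-06). The main transcript Sgce-205 held 61.9% of the TPM of the gene in WT libraries without pausing (range 46.0% to 81.9%) and 65.2% when paused (30.9% to 83.6%). In KO libraries it held 74.8% without pausing (58.3% to 95.9%) and 84.9% when paused (84.5% to 85.5%). The KO range without pausing thus spanned that of the paused KO libraries.

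Mest (ENSMUSG00000051855.15, chromosome 6, 30723547 to 30748465, plus strand), the host of miR-335, encodes an enzyme-like membrane protein of the endoplasmic reticulum linked to growth of fetus and fat tissue. WT libraries held 23.5, 23.4, 38.8 and 39.8 CPM without pausing and 33.6, 32.6, 42.3 and 44.8 CPM when paused. KO libraries held 50.5, 48.0, 66.0 and 64.1 CPM without pausing and 85.1, 87.1, 93.9 and 89.8 CPM when paused. Replicates 1 and 2 were below replicates 3 and 4 in each group, and the labels do not say what the numbers share. Mest was higher in KO cells 1.82-fold without pausing (0.87 ± 0.18, adjusted p = 0.000653) and 2.32-fold when paused (1.22 ± 0.18, adjusted p = 3.26e-05), and rose 1.56-fold with pausing in KO cells (0.64 ± 0.18, adjusted p = 0.00553). In WT cells the groups overlapped in CPM and pausing gave 0.29 ± 0.18 (95% interval -0.10 to 0.68, adjusted p = 0.185). On TPM the WT groups did not overlap (14.35 to 24.74 without pausing, 24.95 to 35.78 when paused). Fitted within replicates 1 and 2 the WT value was 0.50 (adjusted p = 4.58e-07), and within replicates 3 and 4 it was 0.14 (adjusted p = 0.00938). The difference of the responses was 0.35 ± 0.25 over all libraries (adjusted p = 0.289), 0.31 within replicates 1 and 2 (adjusted p = 0.00157) and 0.36 within replicates 3 and 4 (adjusted p = 0.000189). The fits within replicates held only 2 libraries per group and followed the split seen in the values. Their p-values leave out the spread between the sets of replicates and do not replace those over all libraries.

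Of the TPM of Mest, 74.2% to 77.5% as group means came from Mest-211, which starts at 30738050, the base after the promoter window shown above. Copg2, a coat-protein subunit gene on the opposite strand that overlaps Mest, held 4105 to 11850 counts per library. Copg2 was higher with pausing in WT cells (0.65, adjusted p = 1.89e-11) and KO cells (0.37, adjusted p = 2.06e-08) and higher in KO cells (0.60 without pausing, adjusted p = 3.15e-11). Since it is not given whether the libraries keep strand, reads of the shared bases cannot be told apart.

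Impact (ENSMUSG00000024423.6, chromosome 18, 12955852 to 12992950, plus strand) encodes an inhibitor of the GCN2 branch of the amino acid starvation response. Its levels were 120.1, 123, 119.9 and 119 CPM in WT libraries without pausing and 104, 108, 118 and 119 CPM when paused, so the lowest without pausing and the highest when paused were at the same level. KO libraries held 88.1, 92.7, 90.2 and 86.1 CPM without pausing and 72.5, 68.0, 67.6 and 66.9 CPM when paused, without overlap. Impact was lower in KO cells 1.35-fold without pausing (-0.43 ± 0.04, adjusted p = 3.43e-08) and 1.63-fold when paused (-0.71 ± 0.04, adjusted p = 4.89e-11). Pausing lowered it in KO cells (-0.38 ± 0.04, adjusted p = 2.13e-07), and by less in WT cells (-0.10 ± 0.04, adjusted p = 0.0448), with a difference of -0.28 ± 0.06 (adjusted p = 0.000982). The WT call was lost without replicate 1 (-0.10, adjusted p = 0.0641) or 4 (-0.11, adjusted p = 0.0524) of WT not paused, or replicate 1 (-0.07, adjusted p = 0.13) or 2 (-0.08, adjusted p = 0.133) of WT paused. On TPM, a per-length scale on which other genes set the share of each, the WT means were 70.4 ± 3.38 and 80.3 ± 6.70, in the opposite order. The KO means were 54.7 ± 4.02 TPM without pausing and 54.1 ± 2.02 TPM when paused, with overlap, so the fall in KO cells was seen in CPM and not in TPM. Impact-201 held 48.2% to 55.7% of its TPM and Impact-202 21.0% to 25.5%, as group means.

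**Figure D2:**
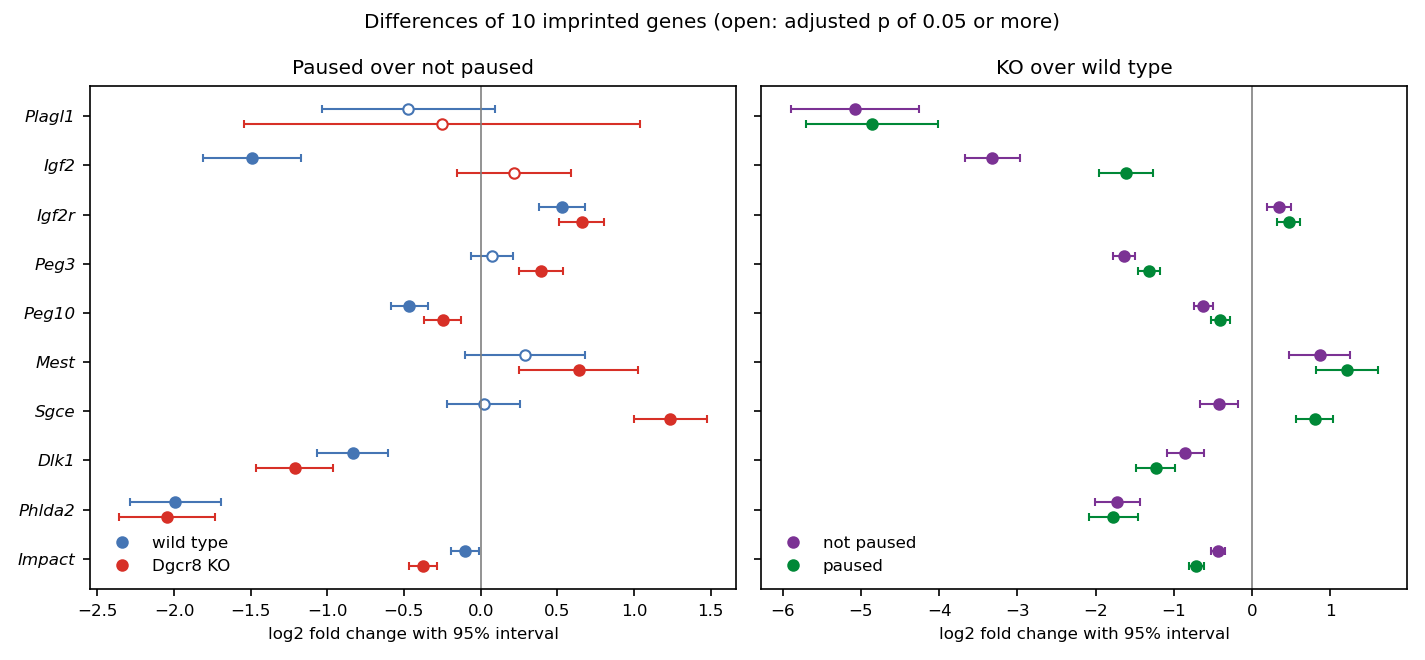
Log2 fold changes (horizontal axes) of the 10 imprinted genes, paused over not paused in each genotype (left) and KO over wild type in each culture (right), with 95% intervals. Filled points passed an adjusted p of 0.05. Plagl1, Peg10, Dlk1, Phlda2 and Impact lie left of 0 in all comparisons, and Igf2r and Mest right of 0 in all. Sgce lies on opposite sides of 0 in the 2 cultures on the right.

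Counted together, 1 of the 10 genes rose and 5 fell with pausing in WT cells, where 60.7% of all genes tested passed the threshold (33.3% higher, 27.5% lower). The median log2 fold change was -0.28 for the 10 genes and 0.04 for all genes. The paused and not paused WT libraries did not overlap for 5 of the 10 genes and for 54% of all genes. In KO cells 4 rose and 4 fell with pausing, against 67.2% passing among all genes (34.4% higher, 32.8% lower), with medians of -0.01 and 0.02. There, 8 of 10 had no overlap, against 64% of all genes. The response differed between genotypes for 5 of the 10 genes, where 41.9% of all genes passed. It was more positive in KO cells for Igf2, Peg3, Peg10 and Sgce (17.4% of all genes) and more negative for Impact (24.5%). The counts of calls in either direction, 6, 8 and 5 of 10, were near these shares and are no result about these genes.

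All 10 genes differed between KO and WT without pausing, 2 higher (Igf2r and Mest) and 8 lower, where 68.2% of all genes passed (34.1% in each direction). In paused cells all 10 differed again, 3 higher (Igf2r, Mest and Sgce) and 7 lower, where 65.4% passed (30.8% higher, 34.5% lower). Groups did not overlap for any of the 10 in either culture, against 60.5% and 63.4% of all genes without overlap. The median log2 fold changes of the 10 genes were -0.74 and -0.97, against -0.03 in each for all genes, and their median absolute values 0.858 and 1.22, against 0.423 and 0.368. Without regard to sign, members responded to pausing by a median of 0.469 in WT and 0.516 in KO cells, against 0.358 and 0.432 for all genes. The 10 genes were chosen with earlier results of these data known. An excess over all genes in these counts and medians may follow from that choice. The comparisons share libraries: the WT response and the genotype difference in normal culture both use the WT libraries without pausing, and each other group enters 2 comparisons as well.

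Other imprinted genes gave a wider view, and 50 of 56 listed could be tested. Without pausing, 15 were higher and 25 lower in KO cells (median log2 fold change -0.27), and in paused cells 13 were higher and 20 lower (median -0.09). Split by the copy usually expressed, 3 of 21 paternally expressed genes were higher and 15 lower without pausing (median -0.86), and 12 of 29 maternally expressed genes were higher and 10 lower (median 0.16). In paused cells 5 of the 21 were higher and 11 lower (median -0.32), and 8 of the 29 were higher and 9 lower (median 0.02). Of all genes tested, 34.1% were higher and 34.1% lower without pausing, and 30.8% and 34.5% when paused. Pausing moved 14 up and 17 down in WT cells (median 0.02) and 18 up and 18 down in KO cells (median 0.03), where 33.3% and 27.5% of all genes moved up and down in WT and 34.4% and 32.8% in KO cells. Sfmbt2, a paternally expressed Polycomb-group gene needed in the placenta, was lower in KO cells by 3.35 ± 0.15 without pausing (adjusted p = 1.76e-11). Cdkn1c, a maternally expressed inhibitor of the cell cycle and neighbour of Phlda2, was lower in KO cells by 3.32 ± 0.19 without pausing and 3.97 ± 0.20 when paused (adjusted p = 1.02e-09 and 3.71e-10).

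**Figure D3:**
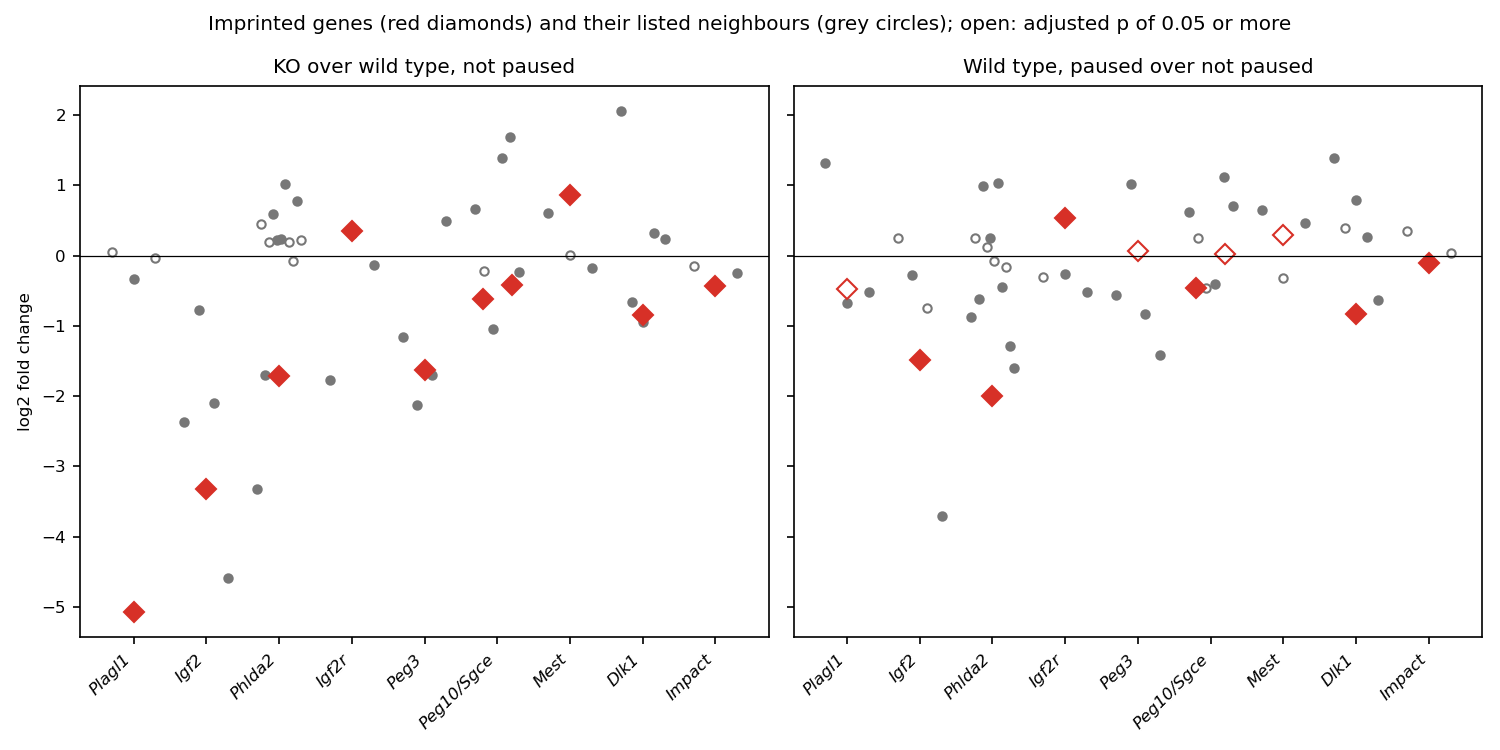
Log2 fold changes (vertical axis) of the 10 imprinted genes (red diamonds) and of 42 tested neighbours in their domains (grey circles), KO over wild type without pausing (left) and pausing in wild type (right), by domain on the horizontal axis. Open symbols did not pass an adjusted p of 0.05. Neighbours of Igf2 and Peg3 lie mostly below 0 on the left, and those of Phlda2 lie on both sides.

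The genes around each member were examined for values in the same direction. Many of them, such as Cdkn1c, Ascl2 and Rtl1, were also on the list of other imprinted genes, so the counts of these lists are not separate. Of 51 listed neighbours, 42 could be tested, and 14 were higher and 18 lower in KO cells without pausing, against 34.1% of all genes in each direction. Near Igf2, 4 of 4 tested were lower (Mrpl23, Lsp1, Th and Tnnt3, median -2.24), Mrpl23 by 0.77 (adjusted p = 2.1e-06), and the last 3 at means under 1 CPM in every group. Near Peg3, Zfp264 was lower by 2.13 ± 0.32, Zim1 by 1.70 and Usp29 by 1.16 (adjusted p = 3e-05, 1.11e-06 and 1.4e-05), while the kinase gene Aurkc was higher by 0.49 (adjusted p = 0.0349). When paused, all 4 neighbours of Peg3 were lower in KO than in WT cells. Near Plagl1 only Sf3b5 was lower (-0.33, adjusted p = 1.8e-05), with 0.06 for Phactr2 and -0.03 for Ltv1 (adjusted p = 0.723 and 0.479), so the size of the Plagl1 difference was not shared by these 3 genes. Near Phlda2, 5 of 12 were higher and 2 lower. Ascl2, a placental transcription factor gene, was lower by 1.71 ± 0.13 (adjusted p = 1.03e-09), while Osbpl5 was higher by 1.03 ± 0.12 (adjusted p = 7.4e-07). Near Dlk1, which was lower, 3 of 5 were higher and 2 lower, led by Rtl1, higher by 2.06 ± 0.12 (adjusted p = 2.45e-11), and Begain, lower by 0.94 ± 0.19 (adjusted p = 0.000354). Near Peg10 and Sgce, also lower, the paraoxonase genes Pon3 and Pon2 were higher by 1.68 ± 0.13 and 1.39 ± 0.08 (adjusted p = 1.91e-09 and 5.02e-11) and Ppp1r9a by 0.66, while Asb4 was lower by 1.04 ± 0.36 (adjusted p = 0.0149) and Casd1 by 0.23, of 6 tested. Near Igf2r, which was higher, Acat2 was higher by 0.31 and the organic cation transporter gene Slc22a2 and Tcp1 were lower by 1.77 ± 0.41 and 0.13 (adjusted p = 8.49e-07, 0.000969 and 0.000896). Slc22a2 was at a low level, with a mean log2 CPM under 1. Near Mest, Copg2 was higher and Cep41 lower by 0.18 (adjusted p = 0.022) of 3 tested, and near Impact, Osbpl1a was lower by 0.25 (adjusted p = 0.000397) of 2 tested.

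Pausing in WT cells moved neighbours both ways, 13 up and 16 down of 42, where 33.3% of all genes moved up and 27.5% down. In the domain of Phlda2, Cars, the cysteinyl-tRNA synthetase gene, fell by 1.29 (adjusted p = 2.78e-07), Cdkn1c fell by 0.87 ± 0.17 (adjusted p = 0.000506), and Osbpl5 and Slc22a18 rose by 1.04 ± 0.12 and 1.00 (adjusted p = 7.6e-07 and 1.22e-05). In the domain of Dlk1, the retrotransposon-derived Rtl1 rose by 1.39 ± 0.12 in WT cells (adjusted p = 7.91e-09), from 1.48 ± 0.154 to 3.89 ± 0.670 CPM, while Dlk1 fell. Dio3, a thyroid hormone deiodinase gene of the same domain, went from 1.31 ± 0.442 to 7.30 ± 1.09 CPM with pausing in KO cells (2.47 ± 0.27, adjusted p = 5.74e-07), again with Dlk1 lower. In the domain of Mest, Cep41 rose by 0.47 in both genotypes (adjusted p = 4.16e-06 and 3.75e-06). Near Peg10 and Sgce, Casd1 rose by 0.70 in WT and 0.87 in KO cells (adjusted p = 2.88e-08 and 1.36e-09).

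Genes linked to DNA methylation or to imprints were listed too, 24 in all and all tested. They are not all factors that place or keep imprints. The Tet genes, Tdg and Zdbf2, which is also on the list of other imprinted genes, are among them. In KO cells 4 were higher and 10 lower without pausing (median log2 fold change -0.06), and 4 were higher and 15 lower when paused (median -0.27). The shares among all genes were 34.1% in each direction without pausing, and 30.8% higher and 34.5% lower when paused. The de novo DNA methyltransferase gene Dnmt3b was lower in KO cells by 2.42 ± 0.14 (477 ± 46.4 against 89.4 ± 10.6 CPM without pausing, adjusted p = 8.64e-10). Its cofactor gene Dnmt3l was lower by 2.35 ± 0.09 (adjusted p = 2.49e-12) and Ctcfl, a germline relative of the insulator protein CTCF, by 3.00 ± 0.16 (adjusted p = 1.38e-11). Zdbf2, which is itself a paternally expressed imprinted gene, was higher in KO cells, by 1.81 ± 0.11 without pausing and 1.34 ± 0.11 when paused (adjusted p = 6.4e-10 and 2.49e-08). Pausing raised Zfp57, whose product binds the hexamer marked in the Mest promoter, by 0.62 ± 0.04 in WT and 0.94 ± 0.04 in KO cells (adjusted p = 4.64e-11 and 2.15e-13). Of the 24 genes, 10 rose and 6 fell with pausing in WT and 7 rose and 12 fell in KO cells, where 33.3% and 27.5% of all genes rose and fell in WT and 34.4% and 32.8% in KO cells. Dnmt3a, the other de novo methyltransferase gene, fell by 1.31 ± 0.07 in KO cells (adjusted p = 2.5e-11) and gave -0.01 ± 0.07 in WT cells (adjusted p = 0.928), and the responses differed (adjusted p = 2.89e-08). Uhrf1, whose product brings the maintenance methyltransferase to replicated DNA, fell by 0.88 ± 0.08 in KO cells (adjusted p = 3.33e-08) and gave -0.16 ± 0.08 in WT cells (adjusted p = 0.0805), a difference of -0.72 ± 0.11 (adjusted p = 7.85e-05). DNA methylation was not measured in these libraries.

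For all of the 10 genes but Sgce, the 1 other gene with the most similar pattern is given, by the smallest mean absolute difference of log2 CPM centred per gene over the 16 libraries, among 9159 genes of sufficient level (log2 CPM of 3 or more as the mean of all libraries). For Igf2 this was Sfmbt2, also imprinted, at 0.228 (67.7, 18.2, 6.65 and 6.68 CPM in the order WT not paused, WT paused, KO not paused and KO paused). For Dlk1 it was Ddx21, a nucleolar RNA helicase gene, at 0.0942 (756, 418, 404 and 182 CPM). Phlda2 was nearest to Ppa1, a pyrophosphatase gene, at 0.307. For Impact it was Hk2, which encodes hexokinase 2, at 0.0527, for Igf2r Ccpg1 at 0.0457, and for Peg3 Podxl at 0.114. Peg10 was nearest to Nr6a1 at 0.0765 and Mest to the zinc transporter gene Slc30a2 at 0.113. The nearest gene to Plagl1, the gap junction gene Gja1, was at 0.682, the largest difference of those given here. Plagl1 also varied most itself, with a mean absolute deviation of 2.33, against 1.03 for Phlda2. The differences therefore do not rank likeness between the 10 genes. All points share the same 16 libraries, and the measure is a description.

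**Figure D4:**
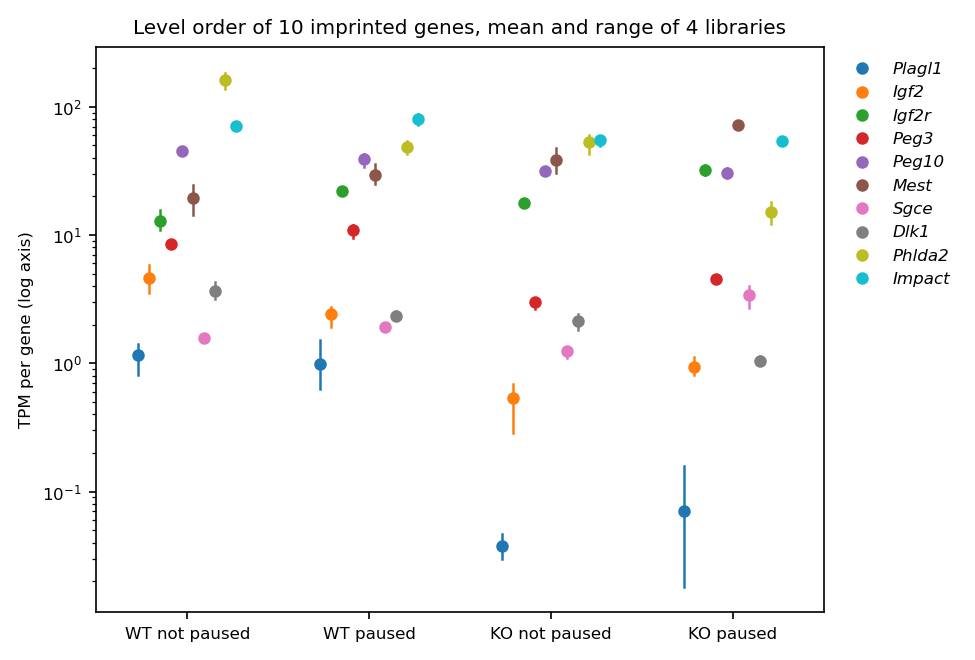
TPM per gene (vertical axis, log scale) of the 10 imprinted genes in the 4 groups. Points are means and lines the range of 4 libraries. Phlda2 is the highest gene in WT cells without pausing, at 162 TPM, and in place 5 in paused KO cells, at 15.1 TPM, while Plagl1 is the lowest in every group.

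Levels were set against each other as TPM, which corrects for length. In WT cells without pausing the order was Phlda2 (162 ± 25.4 TPM; SD, n = 4), Impact (70.4 ± 3.38), Peg10 (44.9 ± 2.97), Mest (19.6 ± 5.53), Igf2r (12.8 ± 2.07), Peg3 (8.53 ± 0.426), Igf2 (4.64 ± 1.08), Dlk1 (3.65 ± 0.523), Sgce (1.57 ± 0.0779) and Plagl1 (1.16 ± 0.301). In this order Mest overlapped Igf2r and Igf2 overlapped Dlk1, and the other neighbours were separate. Phlda2 exceeded 95.3% of the genes tested there. In paused WT cells Impact led (80.3 ± 6.70 TPM), Phlda2 (48.9 ± 4.64) overlapped Peg10 and Peg10 (39.0 ± 3.72) overlapped Mest, and Igf2 and Dlk1 were at 2.41 ± 0.404 and 2.35 ± 0.159 TPM, with overlap. In KO cells without pausing the first 4, Impact (54.7 ± 4.02 TPM), Phlda2 (52.7 ± 7.48), Mest (38.5 ± 8.63) and Peg10 (31.6 ± 1.19), each overlapped the next. Mest led in paused KO cells (71.6 ± 1.78 TPM), followed by Impact (54.1 ± 2.02) and by Igf2r (32.1 ± 2.22) and Peg10 (30.6 ± 2.56), which overlapped, and then Phlda2 (15.1 ± 2.69). Dlk1 (1.05 ± 0.0618) and Igf2 (0.939 ± 0.139) overlapped there, and Plagl1 (0.0701 ± 0.0638) was last.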

How the data were processed

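Poly(A) RNA of 16 libraries was measured. The authors ran kallisto on GRCm38, per the submitters' processing notes, and its version and the transcript annotation are not given in the sources used here. The deposited tables hold, per the file headers, estimated counts (expected counts), TPM and lengths per transcript. Of 118489 transcripts, 116728 matched GENCODE M21, and the 1761 others (0.656% to 0.712% of the counts of a library) were left out. Gene sums of the estimated counts, for 35968 genes, were rounded. Genes were kept by filterByExpr at a minimum count of 10 (18944 genes) and scaled by TMM (factors 0.933 to 1.07). CPM are TMM-scaled. Quasi-likelihood F tests (edgeR 4.0.16, robust setting, R 4.3.3) were fitted to all 16 libraries with 1 mean per group. Tests are two-sided, with Benjamini-Hochberg adjustment over 18944 genes in each of 5 contrasts and a threshold of 0.05. "Rose", "fell", "higher" and "lower" in counts refer to it. SE is the absolute log2 fold change over the square root of F, and 95% intervals use 12 residual degrees of freedom. The biological coefficient of variation was 0.0852, and no 2 libraries were identical.

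The 10 genes and the lists were chosen with earlier results of these data known. Named genes are the 10, Dgcr8, the fixed domain neighbours, the most similar gene of each (that of Sgce is not reported here) and, per list, up to 4 genes that passed with the largest changes and a mean log2 CPM of 1 or more. Igf1, outside this rule, was named after its values were seen. TPM were used to compare levels between genes and for transcript shares and marker sums. They were also set beside CPM for Impact, Sgce, Peg3, Igf2, Peg10 and Mest, and length-scaled TPM counts were an alternative. On simulated counts with known changes of 1 on the log2 scale, 96%, 99%, 88%, 97% and 97% were recovered for pausing in WT, pausing in KO, the interaction, and KO against WT without pausing and paused (18605, 18615, 18640, 18618 and 18593 genes). For changes of 0.5 the shares were 76%, 71%, 58%, 64% and 72%, and 5.50%, 6.59%, 5.20%, 3.59% and 2.31% of calls were false. In each simulation few genes were changed, all of them well above the count filter, and noise was independent between libraries. In the data far more genes passed, so these shares may not carry over. Alternatives were RLE scaling, DESeq2 1.42.0, no low-count filter, length-scaled TPM counts, only the groups compared, a replicate block, replicates 1 and 2 or 3 and 4 only, and leaving out each library. Fits to replicates 1 and 2 or 3 and 4 only had 2 libraries per group. Promoter and microRNA sequences are from RefSeq (GRCm38.p6).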

Additional observations from a re-analysis of the deposited data

Results flagged for a closer look

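The response to pausing differed between the genotypes, by the test of the interaction, for 5 of the 10 genes, as KO minus WT on the log2 scale: 1.71 for Igf2, 1.22 for Sgce, 0.32 for Peg3, 0.22 for Peg10 and -0.28 for Impact. Of all genes tested, 41.9% passed the same test, so the count of 5 is near that share. Igf2 fell only in WT cells by its own test on counts, and Sgce and Peg3 rose only in KO cells. Peg10 and Impact fell in both, Peg10 by less and Impact by more in KO cells. Some of these readings depend on the scale. On TPM, paused WT libraries lay above those without pausing for Sgce and Peg3. Their ranges were 1.829 to 1.985 against 1.492 to 1.639 and 9.53 to 11.87 against 7.995 to 8.876. Igf2 was higher with pausing in KO cells on TPM (0.813 to 1.12 against 0.285 to 0.694). Peg10 overlapped on TPM in KO cells (27.96 to 33.42 paused, 30.05 to 32.69 without pausing). It also overlapped in WT cells (33.87 to 42.78 paused, 41.76 to 48.24 without pausing).

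A single library stood apart from the other 3 of its group in 2 of 40 groups of 4 examined, by a gap above the 95% critical value of Dixon's test. Chance gives about 1 in 20, or 2 here. They were Plagl1 in the second KO library without pausing (0.135 CPM, 14 counts against 6, 7 and 6) and Dlk1 in the first paused KO library (1.10 CPM, with the others at 0.974 to 0.996).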

How the results depend on the processing

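Of 389 single values of the 10 genes under the planned settings, 363 kept their direction and their side of the threshold, 7 lost and 10 gained a call and 9 changed sign. All 20 differences between KO and WT kept theirs. With length-scaled TPM counts 3 of the 10 genes passed for the interaction in place of 5, since Peg10 (0.20, adjusted p = 0.0648) and Impact (-0.16, adjusted p = 0.0698) did not, and the cause was not tested. That setting also gave 0.718 for Plagl1 with pausing in KO cells (sign changed) and passed Igf2 there (0.61, adjusted p = 0.0258). Every sign change was in a value that did not pass: Sgce with pausing in WT cells was -0.00995 by RLE, -0.00971 by DESeq2, -0.0260 with only the groups compared and -0.0761 in replicates 3 and 4. In replicates 1 and 2, Peg3 with pausing in WT cells was -0.0319, and the interaction was -0.180 for Plagl1 and 0.191 for Phlda2. Plagl1 with pausing in KO cells was 0.0333 in replicates 3 and 4, and had too few counts to be tested with only the groups compared.

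Impact in WT cells lost its call without the filter (-0.10, adjusted p = 0.0556), with length-scaled counts (-0.06, adjusted p = 0.318) and in replicates 3 and 4 (-0.02, adjusted p = 0.661). Replicates 3 and 4 alone also gave Plagl1 -0.58 (adjusted p = 0.0048) and Peg3 0.16 (adjusted p = 0.0143) in WT cells, and interactions of -0.61 for Dlk1 (adjusted p = 0.0171) and 0.12 for Peg10 (adjusted p = 0.0767). Leaving out 1 library at a time kept 458 of 480 values, and the number of the 10 genes passing was 5 to 7 (WT pausing), 8 (KO pausing), 4 to 6 (interaction), 10 and 10. Sgce in WT cells ranged from -0.0164 to 0.0679, turning without replicate 2 of WT not paused or 1 of WT paused. The Plagl1 value in KO cells ranged from -0.474 to 0.0901, and the Phlda2 interaction from -0.127 to 0.0647.

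Whether replicate numbers pair the libraries was left undecided. Over 24 pairs with the same number the deviations from the group means correlated weakly, at -0.05 to 0.10, none over 0.1. In 11 of 24 the own number was the best match, and the share given by chance was not computed. A split between sets of replicate numbers, as seen for Mest, was not tested by these correlations. With the replicate block 7, 8, 5, 10 and 10 of the 10 genes passed in the 5 contrasts. It passed Plagl1 (-0.45, adjusted p = 0.0386) and Mest (0.31, adjusted p = 0.015) in WT cells and lost Impact (-0.10, adjusted p = 0.0599). Depth limits the KO values of Plagl1, at 4 to 14 counts, and of Igf2, at 86 to 169.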

Other observations

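Some imprinted genes outside the 10 varied widely among libraries of 1 group. Zrsr1, a paternally expressed splicing-factor gene, ranged from 187 to 2476 CPM in the 4 KO libraries and from 993 to 3491 CPM in the 4 WT libraries without pausing, and from 233 to 488 and 444 to 670.3 CPM when paused. Grb10 ranged from 89.6 to 186 CPM in WT libraries without pausing and from 40.3 to 52.3 CPM when paused. The split seen for Mest between replicates 1 and 2 and replicates 3 and 4 was also present elsewhere. Over the 10 genes and 4 groups, 40 sets in all, replicates 1 and 2 both lay below replicates 3 and 4 in 15 sets, 4 of them of Mest, and both above in 10. The shares over all genes tested and those given by chance were not computed, so these counts are no result about the 10 genes. Plagl1 had the lower pair in both WT groups, at 1.76 and 2.08 against 4.10 and 3.69 CPM without pausing, and Igf2 in both WT groups and in KO cells without pausing. Igf2r had the reverse in every group but WT paused.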
